A study of Mus musculus with 6 samples.

Results

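The respiratory chain was followed through the genes of its subunits in B cells sorted from mouse colons, with the nuclear and the mitochondrial genome kept apart. Members were chosen by symbol, with earlier results of these data known. They are the rows named Ndufa, Ndufb, Ndufc, Ndufs or Ndufv with a number (complex I), Uqcr (complex III), Cox4 to Cox8 (complex IV) and Atp5 (complex V), and the protein genes of mitochondrial DNA. This gave 91 of 20591 rows, 78 nuclear and 13 mitochondrial. The nuclear members divide into 37 of complex I, 8 of complex III, 16 of complex IV and 17 of complex V, and the mitochondrial ones into 7, 1, 3 and 2.

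The respiratory chain sits in the inner mitochondrial membrane. Complexes I and II pass electrons from NADH and succinate to ubiquinone, complex III hands them on to cytochrome c, and complex IV gives them to oxygen. Complexes I, III and IV pump protons, and complex V, the ATP synthase, makes ATP as the protons flow back. Every complex except complex II is assembled from proteins of both genomes: mitochondrial DNA encodes a few hydrophobic core proteins, and all other subunits are made from nuclear genes in the cytosol and imported. B cells enlarge this machinery when they are activated, and plasma cells rely on it.

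The study's design text and title place these B cells in work on lenvatinib, colitis and the movement of B cells into the gut. Lenvatinib blocks several receptor tyrosine kinases, above all those for VEGF and FGF, and DMSO is the solvent control. The labels give 3 libraries of colon B cells from DMSO-treated mice and 3 from lenvatinib-treated mice, named below by group and replicate number. Strain, age, dose, length of treatment, colitis induction and sorting markers are not given in the sources used here. In the labels the libraries are called biological replicates without being tied to single animals, so the p-values speak of variation among these libraries, part of which may be technical.

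Library totals, recovered from the deposited values, were between 26635279 and 31655500 reads. B cell markers were high in all 6 libraries (Cd79a averaged 1035 in DMSO and 802 in lenvatinib), but the summed level of 12 B cell markers was lower with lenvatinib, at 3120.4 ± 23.8 against 2645 ± 21.8, a difference of −15.2 percent. Levels are FPKM, reads divided by gene length and library total, scaled between libraries, and ± is the SD over n = 3 libraries throughout. Summed levels of the marker lists of other cells were higher with lenvatinib, without overlap between the groups, except for the plasma cell list. In the lists that were higher, the tested markers with a change below 0 were Cd8b1 of T cells and Cd68 of macrophages. Both had a log2 change of −0.20 and did not pass. The T cell list summed to between 50.4 and 54.2 in DMSO and between 152 and 154 in lenvatinib libraries, with 8 of 11 tested markers higher, and the NK and innate lymphoid cell list went from 33.6 ± 3.55 to 169 ± 2.82, with 9 of 9 higher. The colon epithelium list went from 14.8 ± 0.257 to 67.8 ± 2.21, with 8 of 8 tested markers higher, the macrophage and dendritic cell list from 62.8 ± 1.81 to 75.0 ± 4.95, with 2 of 8 higher, and the neutrophil list from 6.86 ± 0.688 to 14.9 ± 2.86, with 2 of 3 higher. Of the 6 neutrophil markers 3 were too low to test, and 2 of these were lower with lenvatinib. Ly6g averaged 0 in DMSO and 0.0234 in lenvatinib libraries, Csf3r 0.320 and 0.259, and Mpo 0.120 and 0.0294. The plasma cell list went from 367 ± 1.53 to 344 ± 8.62, with 1 of 6 tested markers higher and 1 lower. Jchain rose from 45.9 ± 2.49 to 62.9 ± 4.36, and Irf4 fell from 136 ± 1.80 to 104 ± 0.537. In bulk RNA, fewer cells of a type and less RNA per cell cannot be told apart, and the part of these other cells in the values below was not tested.

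Nuclear respiratory chain genes rose in each of the 4 complexes, while the summed level of the mitochondrial rows differed between the groups by less than its spread. Of the 73 nuclear members that could be tested, 30 rose (41.1 percent) and 0 fell (limma, adjusted p under 0.05, adjusted over 9937 tested genes). Among all tested genes 10.4 percent rose and 8.21 percent fell. At an unadjusted p under 0.05 the limma fit had 42 nuclear members higher and 0 lower, beside 17.6 and 14.7 percent of all tested genes. Limma-voom on reads recovered from the FPKM values called 20 higher and 0 lower, beside 12.3 and 12.9 percent of 9919 genes. The count was 16 without DMSO replicate 3 and also 16 without lenvatinib replicate 1, and without lenvatinib replicate 3 it was 20 higher and 1 lower, Ndufc1. The changes were small. The median log2 change was 0.15 over the tested nuclear members and 0.01 over all tested genes, and the members ran from −0.25 for Ndufc1 to 0.43 for Ndufc2.

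Most nuclear members shared the direction of those that passed. The change was above 0 in 67 of 73 tested members, beside 5120 of 9937 genes (51.5 percent), and the lenvatinib libraries lay wholly above the DMSO libraries in 36 members, a pattern of 18.9 percent of all tested genes. In 37 members the groups overlapped, and in 0 did lenvatinib lie wholly below, beside 18.2 percent of all tested genes. The 6 members with a change below 0 were Ndufa3, Ndufb4, Ndufb6 and Ndufc1 of complex I, Cox7a2l of complex IV and Atp5e of complex V. Without DMSO replicate 3, the library with the lowest summed nuclear level, 59 of 73 were above 0.

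**Figure D1:**
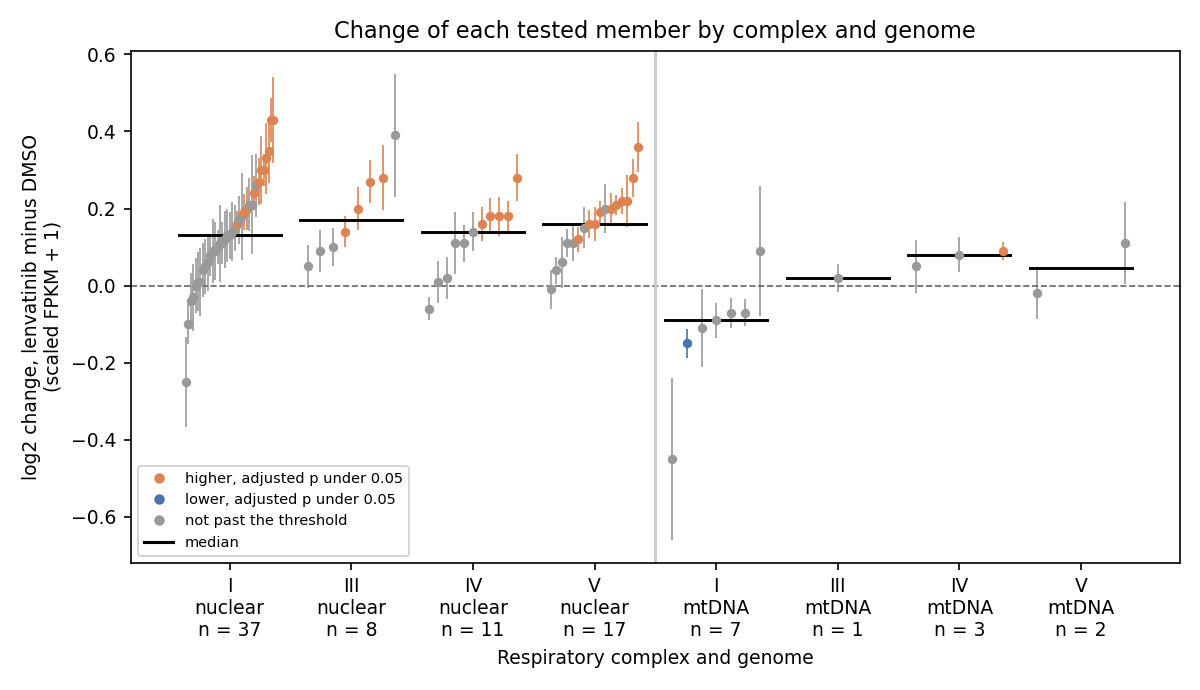
Log2 change (lenvatinib minus DMSO, of scaled FPKM + 1) of each tested member with its standard error, by complex and genome; the black bar is the median of each column. Nuclear medians lie between 0.13 and 0.17, while the 7 mitochondrial complex I rows have a median of −0.09.

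Summed over all nuclear members, the level was 5846, 5852 and 5566 in DMSO replicates 1 to 3 and 6345, 6242 and 6448 in lenvatinib replicates 1 to 3. The groups did not overlap, and the lenvatinib mean was 10.3 percent higher (5755 ± 163 against 6345 ± 103). Each complex showed a similar excess. Complex I summed to 1623 ± 49.8 and 1785 ± 40.7 (10 percent higher), complex III to 633 ± 34.3 and 703 ± 11.5 (11.1 percent), complex IV to 1489 ± 52.1 and 1629 ± 29.4 (9.36 percent) and complex V to 2010.3 ± 30.4 and 2229 ± 41.8 (10.9 percent). In none of these 4 sums did the groups overlap. The summed level of all tested genes was 1.85 percent higher in the same comparison.

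The mitochondrial rows summed to 22381, 22233 and 21283 in the DMSO libraries and 22156, 21365 and 22776 in the lenvatinib libraries. These ranges overlapped, and the means, 21965 ± 596 and 22099 ± 707, differed by 0.608 percent. The deposited FPKM held 3.83, 3.8 and 3.82 units of mitochondrial per unit of nuclear respiratory chain transcript in DMSO and 3.49, 3.42 and 3.53 in lenvatinib libraries. All 3 lenvatinib ratios were below all 3 DMSO ratios. As shares of recovered reads, nuclear members took between 0.501 and 0.521 percent of each DMSO library and between 0.574 and 0.581 percent of each lenvatinib library, and mitochondrial rows between 2.87 and 3.00 percent and between 2.93 and 3.11 percent.

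**Figure D2:**
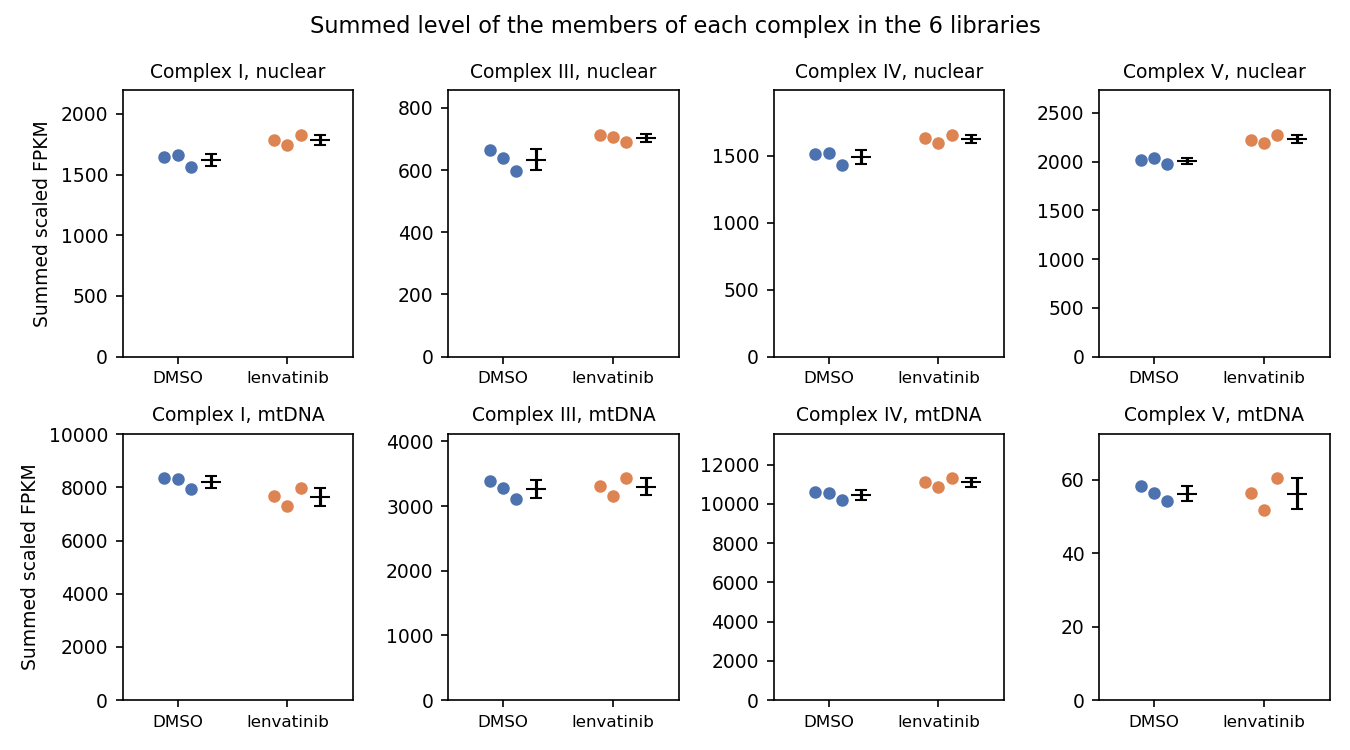
Summed scaled FPKM of the members of each complex, nuclear above and mitochondrial below; points are the 3 libraries of each group in replicate order and bars the mean and SD, on axes that start at 0. The groups are apart in all 4 nuclear panels and, of the mitochondrial ones, in complex IV.

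Complex I, the NADH dehydrogenase, is the largest complex of the chain. Of its 37 nuclear members 11 rose and 0 fell (16 and 0 at an unadjusted p under 0.05 in limma, 8 and 0 by limma-voom). The median change was 0.13, and the count was 5 higher without DMSO replicate 3. Ndufc2, a small subunit of the membrane arm, had the smallest p. Its level was 39.4, 41.4 and 38.1 in DMSO replicates 1 to 3 and 50, 57.5 and 54.0 in lenvatinib replicates 1 to 3. The lowest lenvatinib library was above the highest DMSO library, a rise of 0.43 on the log2 scale (SE 0.057, limma adjusted p = 0.000869).

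Ndufa9, an accessory subunit beside the ubiquinone site, stood at 35.7, 35.2 and 37.2 in DMSO and 44.3, 45.1 and 44.4 in lenvatinib libraries. The groups were separated by several times their spread, and the log2 change was 0.30 (SE 0.042, adjusted p = 0.00113). Ndufb11, of the membrane arm, had 90.1, 87.6 and 86.5 in DMSO and 97.9, 102 and 96.8 in lenvatinib libraries (log2 change 0.16, SE 0.034, adjusted p = 0.0104), again without overlap. Ndufa4 carries a complex I symbol but is now counted as a subunit of complex IV. It had 99.1, 109 and 97.1 in DMSO and 120.3, 119 and 122 in lenvatinib libraries, which did not overlap (log2 change 0.24, SE 0.044, adjusted p = 0.00447).

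The other 7 complex I members that rose changed by between 0.19 and 0.43. They include Ndufs5, from 25.6 ± 3.93 to 34.6 ± 3.76, Ndufb2, from 18.1 ± 1.41 to 22.0 ± 0.209, Ndufb9, from 41.4 ± 1.79 to 47.3 ± 1.36, and Ndufa11, from 7.09 ± 1.01 to 9.10 ± 0.168, all of the membrane arm. Ndufv3, Ndufa7 and Ndufa2 belong to the matrix arm and rose from 12.9 ± 1.15 to 16.6 ± 1.44, from 67.9 ± 7.76 to 84.0 ± 7.48 and from 67.8 ± 4.01 to 77.9 ± 4.96. None of these 11 members is a catalytic core subunit.

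The 7 nuclear core subunits carry the flavin, the iron-sulfur clusters and the ubiquinone site, and 0 of 7 passed the limma test (2 higher at an unadjusted p under 0.05, 0 by limma-voom), beside 11 of the 30 accessory members. Their median change was 0.12 and all but Ndufv1 were at or above 0.08. Ndufs3 had the largest change, 45.9, 43.4 and 42.2 against 47.0, 48.7 and 56.7, with groups that did not overlap (log2 change 0.21, adjusted p = 0.0687). The flavin-binding subunit Ndufv1 had 31.7 ± 2.91 and 31.7 ± 1.82, a change of 0.00 (adjusted p = 0.978). Summed, the core subunits were 9.16 percent higher with lenvatinib, and the accessory ones 10.1 percent. The difference between the counts of core and accessory members was not tested.

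Among the 26 complex I members that did not pass, changes ran from −0.25 to 0.26. The lowest was Ndufc1, another small subunit of the membrane arm, at 19.1, 24.0 and 20.2 in DMSO and 15.5, 16.3 and 21.1 in lenvatinib libraries, with overlapping groups (adjusted p = 0.171). Nearest to the threshold was Ndufa1, at 41.9 ± 5.18 and 50.3 ± 2.18 (adjusted p = 0.0502).

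Complex III, the cytochrome bc1 complex, had 4 of 8 nuclear members higher and 0 lower (5 and 0 at an unadjusted p under 0.05 in limma, 2 and 0 by limma-voom), with a median of 0.17. The number higher was 1 without DMSO replicate 3 or without lenvatinib replicate 2, and 2 without DMSO replicate 1, DMSO replicate 2 or lenvatinib replicate 1. Uqcrb, a small subunit next to the ubiquinone site, had 65.9, 62.7 and 58.6 in DMSO and 71.1, 74.3 and 80.4 in lenvatinib libraries. The groups were apart, and Uqcrb rose by 0.27 on the log2 scale (SE 0.056, limma adjusted p = 0.0112).

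Uqcrq, another small subunit, had 31.3, 29.2 and 29.4 in DMSO and 37.1, 34.1 and 32.7 in lenvatinib libraries (log2 change 0.20, adjusted p = 0.0387). Uqcrc1, a core protein that faces the matrix, had 59.3, 61.7 and 57.5 against 67.0, 64.5 and 65.1 (log2 change 0.14, adjusted p = 0.0415). Uqcr10 had 76.4, 72.5 and 67.7 against 102, 83.3 and 79.8 (log2 change 0.28, adjusted p = 0.047). In all 3 the lowest lenvatinib library lay above the highest DMSO library, and lenvatinib replicate 1 was the highest. The call of Uqcrq was lost without lenvatinib replicate 1 and in 8 other alternatives, that of Uqcrc1 in 11 and that of Uqcr10 in 9 of 16.

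The members of complex III that did not pass include the Rieske iron-sulfur protein Uqcrfs1, at 75.8 ± 4.23 and 78.5 ± 4.89, and the second core protein Uqcrc2, at 62.1 ± 2.66 and 66.6 ± 3.30. The hinge protein Uqcrh was the most abundant, at 249.5 ± 18.7 and 266 ± 12.7. Uqcr11 had the largest change of the complex, 0.39, with wide spread: 25.3, 21.3 and 16.8 against 21.8, 31.3 and 30.7, overlapping (adjusted p = 0.126). It rested on as few as 220 reads in a library, the lowest of the tested nuclear members.

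Complex IV, cytochrome c oxidase, had 5 of 11 tested nuclear members higher and 0 lower (7 and 0 at an unadjusted p under 0.05 in limma, 4 and 0 by limma-voom), with a median of 0.14. The number was 1 without lenvatinib replicate 1, and 2 without DMSO replicate 3 or lenvatinib replicate 3. Cox7a2 had 62.7, 66.9 and 64.6 in DMSO and 75.4, 71.1 and 74.6 in lenvatinib libraries (log2 change 0.18, SE 0.04, limma adjusted p = 0.013). Cox6c had 138, 146 and 133 against 174, 152 and 179 (log2 change 0.28, SE 0.061, adjusted p = 0.0136). The groups were apart for both, and lenvatinib replicate 2 was the lowest of its group.

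Cox4i1, the largest nuclear subunit and one that binds regulatory nucleotides, had 256, 252 and 229.8 in DMSO and 267, 292 and 278 in lenvatinib libraries (log2 change 0.18, adjusted p = 0.0246). Cox5b, the zinc-binding subunit, had 156, 149 and 141 against 172, 158 and 169 (log2 change 0.16, adjusted p = 0.0349). In both, DMSO replicate 3 was the lowest library and the groups did not overlap. Cox8a rose from 177 ± 10.7 to 200.2 ± 10.7 although 1 DMSO library, at 189, was above the lowest lenvatinib library, at 188 (log2 change 0.18, adjusted p = 0.0376).

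Several complex IV subunits exist as a ubiquitous form and a form of heart, muscle, lung or testis. Levels in these B cells differed widely between the partners. Cox4i1, at 246 ± 13.9 in DMSO, had the partner Cox4i2 at 0.0917 ± 0.159. Cox6a1, at 135 ± 8.21, had Cox6a2 at 0.452 ± 0.514, and Cox6b1, at 139 ± 15.3, had Cox6b2 at 0.507 ± 0.3. Cox7a2, at 64.7 ± 2.13, had Cox7a1 at 0.189 ± 0.267, and Cox8a had Cox8b, listed at 0 in every DMSO library. In the lenvatinib libraries the restricted forms averaged 0.121, 0.776, 0.110, 0.236 and 0.230 in the same order, so both groups held only traces of them. These 5 were the nuclear members too low to test.

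Cox7a2l encodes a protein that joins complexes III and IV into supercomplexes and is not a regular subunit. It had 179.8, 178 and 174 in DMSO and 166, 172 and 175 in lenvatinib libraries, overlapping, with a change of −0.06 (adjusted p = 0.246), while its relative Cox7a2 rose. Cox6a1 and Cox5a were also near 0, with changes of 0.01 (adjusted p = 0.884) and 0.02 (adjusted p = 0.805).

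Complex V, the ATP synthase, had 10 of 17 members higher (58.8 percent) and 0 lower (14 and 0 at an unadjusted p under 0.05 in limma, 6 and 0 by limma-voom) and a median of 0.16. The number was 6 without DMSO replicate 1. Atp5b, the catalytic beta subunit, had 280.3, 278 and 288 in DMSO and 324, 332 and 327 in lenvatinib libraries. The groups lay far apart beside a spread of a few units, and the log2 change of 0.21 had the smallest adjusted p of all members (SE 0.026, limma adjusted p = 0.00052). Atp5a1, the alpha subunit that alternates with beta in the catalytic head, had 193, 185 and 182 against 226, 213 and 213 (log2 change 0.22, SE 0.034, adjusted p = 0.00199), also without overlap.

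Subunits of the stalk and the membrane ring rose as well. Atp5pb, subunit b of the peripheral stalk, had 95.4, 95 and 95.7 in DMSO and 107, 109 and 109.7 in lenvatinib libraries (log2 change 0.19, SE 0.029, adjusted p = 0.00200). Atp5g3 had 79.3, 79.6 and 80.5 against 90.2, 99.1 and 103 (log2 change 0.28, SE 0.049, adjusted p = 0.00358). For both the DMSO libraries were nearly equal and the groups were separate. Atp5g3 is 1 of 3 genes that encode the same mature subunit c, the proton-carrying ring protein.

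All 3 subunit c genes rose. Atp5g1 went from 28.2 ± 0.757 to 36.5 ± 3.37 (log2 change 0.36, adjusted p = 0.00488), Atp5g2 from 174 ± 5.76 to 188 ± 3.06 (log2 change 0.12, adjusted p = 0.0343). Their order of level, Atp5g2 above Atp5g3 above Atp5g1, held in every library. Together the 3 genes summed to 282 ± 6.57 and 322 ± 9.71, which is 14.4 percent higher.

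The other peripheral and membrane subunits that rose were Atp5j (coupling factor 6), from 37.1 ± 0.275 to 42.9 ± 1.02, Atp5h (subunit d), from 119 ± 2.95 to 133 ± 4.92, Atp5o (the oligomycin sensitivity protein), from 102 ± 1.21 to 114 ± 7.22, and Atp5k (subunit e), from 67.7 ± 4.48 to 79.3 ± 6.88. Outside the F1 head 8 of 12 members rose. Of the 5 head subunits alpha and beta rose, and the central stalk subunits did not pass: gamma (Atp5c1) had 76.2 ± 1.47 and 78.3 ± 1.75, delta (Atp5d) 64.3 ± 1.64 and 69.4 ± 1.33 (adjusted p = 0.0704), and epsilon (Atp5e) 238 ± 18 and 236 ± 7.20. The difference between head and other subunits was not tested.

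**Figure D3:**
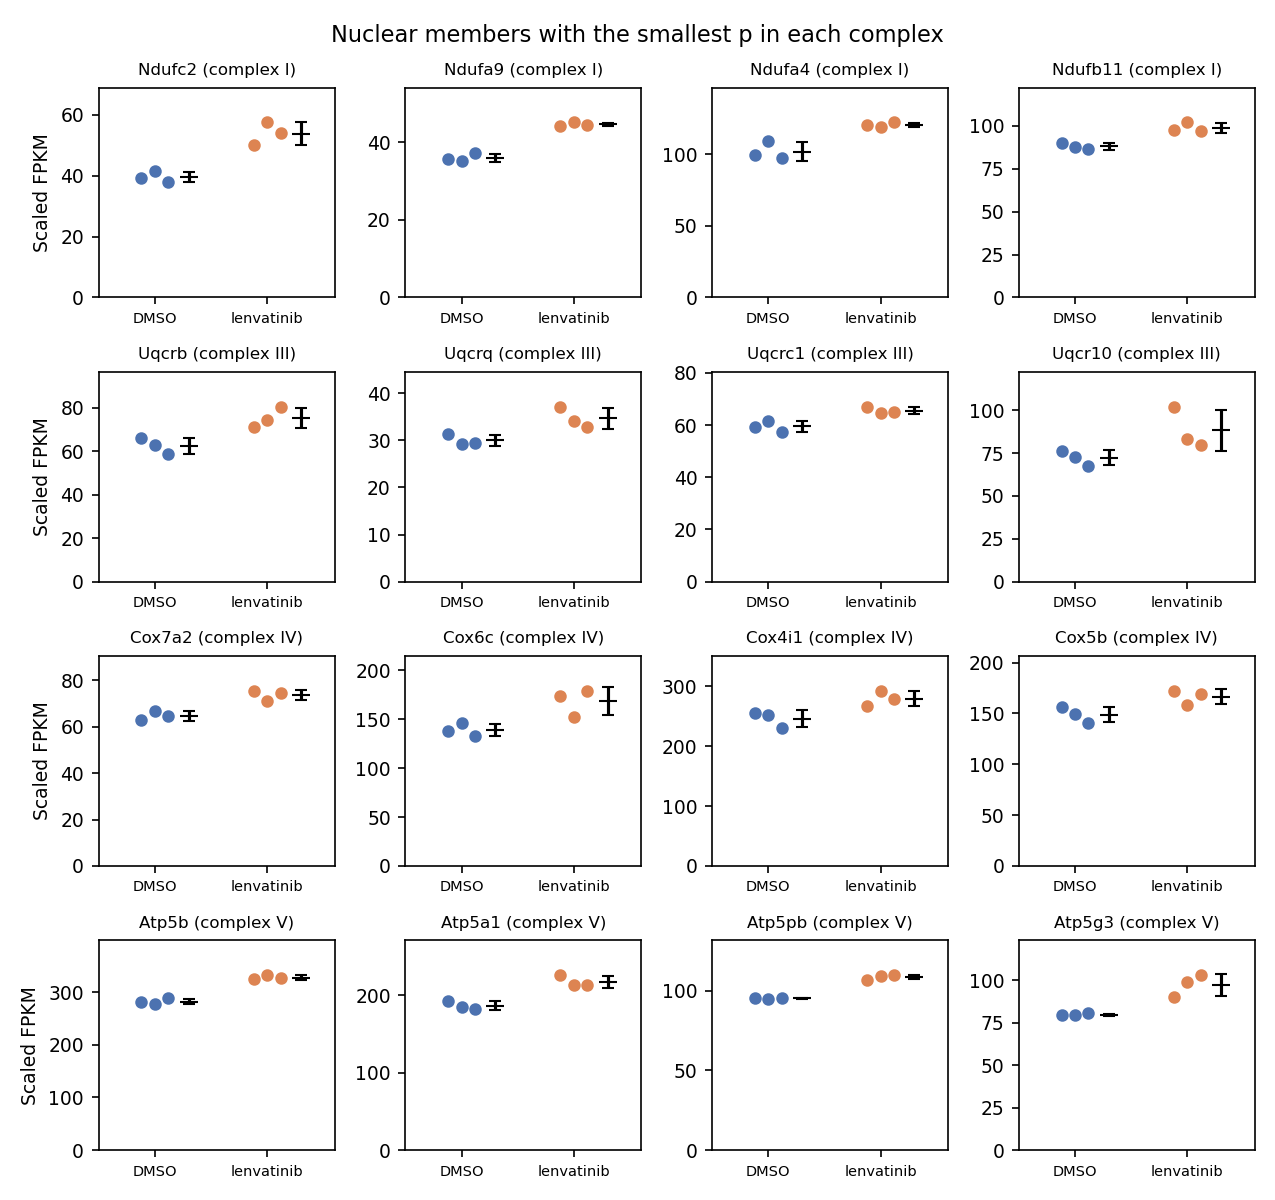
Scaled FPKM of the 4 nuclear members with the smallest p in each complex, 1 point per library in replicate order, with the mean and SD; axes start at 0. In all 16 panels the lenvatinib libraries lie above the DMSO libraries, by 10.1 percent of the mean for Uqcrc1 to 35.8 percent for Ndufc2.

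The calls differed in how far they held. Across 16 alternative settings, 9 of the 30 nuclear calls were kept in every one: Ndufa4, Ndufa9, Ndufc2, Atp5a1, Atp5b, Atp5g1, Atp5g3, Atp5j and Atp5pb. By the symbol rule 6 of these 9 belong to complex V and 0 to complexes III and IV. The least stable calls were kept in 5 of 16.

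Mitochondrial DNA encodes the membrane core of complex I (ND1 to ND6 and ND4L), the cytochrome b of complex III (CYTB), the catalytic core of complex IV (COX1 to COX3) and the ATP synthase subunits ATP6 and ATP8. All 13 rows were tested; COX1 was higher, ND2 lower, and 11 did not pass, beside 18.7 percent of all tested genes past the threshold in either direction. At an unadjusted p under 0.05 limma also had 1 higher and 1 lower, and limma-voom called 0 higher and 2 lower. The median change was −0.02. Leaving out DMSO replicate 2 or lenvatinib replicate 1 left 0 of 13 past the threshold, and leaving out DMSO replicate 1, lenvatinib replicate 2 or lenvatinib replicate 3 left 1.

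COX1, which holds the heme and copper site that reduces oxygen, had 10450.2, 10419.9 and 10045 in DMSO and 10969.7, 10699 and 11131 in lenvatinib libraries. The groups were apart by a small margin, and the rise was 0.09 on the log2 scale (SE 0.023, limma adjusted p = 0.029). It was the most abundant row in every library and took 46.7, 46.9 and 47.2 percent of the mitochondrial FPKM in DMSO and 49.5, 50.1 and 48.9 percent in lenvatinib libraries. Its call was lost in 8 of 16 alternatives. Over the 16 its adjusted p ran from 0.00925 with FPKM as deposited to 1 with quantile normalization, which sets the top row of each library equal, and was 0.0531 by limma-voom.

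ND2, a proton-pumping subunit of complex I, had 1912, 1902 and 1793 in DMSO and 1652, 1620.4 and 1769.6 in lenvatinib libraries. The highest lenvatinib value was just below the lowest DMSO value, and ND2 fell by 0.15 on the log2 scale (limma adjusted p = 0.0201). Its call was lost in 7 of 16 alternatives, with an adjusted p between 3.75e-05 for limma-voom and 0.131 without trend and robust moderation.

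The other well expressed complex I rows leaned the same way without passing. ND1 had 3416, 3402 and 3165 in DMSO and 3151, 3046 and 3291 in lenvatinib libraries (log2 change −0.07, adjusted p = 0.202). ND4 had 1045, 1043 and 987 against 980, 926 and 1025 (−0.07, adjusted p = 0.254), and ND5 had 1829, 1806 and 1821 against 1750.4, 1569.6 and 1807 (−0.09, adjusted p = 0.192). The groups overlapped in all but ND2, and lenvatinib replicate 2 was the lowest library for ND1, ND2, ND4 and ND5. Summed, the 7 complex I rows were at 8196 ± 231 and 7655 ± 341, a difference of −6.59 percent with overlap, while the 37 nuclear members of the same complex were 10 percent higher.

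ND6 is the mitochondrial protein gene transcribed from the opposite strand to the others. It had 97.5, 118 and 121 in DMSO and 95.3, 101 and 56.2 in lenvatinib libraries, a change of −0.45 (adjusted p = 0.189). Lenvatinib replicate 3 stood far below the other 5 libraries, and without it the change was −0.18. Whether counting used strand is not given in the sources used here, so reads of the opposite strand cannot be told apart from those of ND6. CYTB, at 3383, 3285 and 3117 against 3315, 3159 and 3429, changed by 0.02 (adjusted p = 0.791) with overlapping groups.

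The remaining rows were low. COX2, which takes electrons from cytochrome c, had 87.9 ± 7.89 and 90.7 ± 6.28, and COX3 had 59.0 ± 0.667 and 62.5 ± 3.66, with lenvatinib wholly above DMSO and an adjusted p of 0.279. ATP6, the proton channel of the ATP synthase, had 48.0 ± 3.30 and 47.3 ± 3.79, and ATP8 had 8.23 ± 1.2 and 8.94 ± 0.806 on as few as 37 reads in a library. ND3 had 25.1 ± 2.76 and 23.2 ± 3.04. ND4L had 17.6 ± 1.62 and 19.2 ± 6.02, where lenvatinib replicate 2, at 26.2, was alone above the rest and turned the sign of the change from −0.15 without it to 0.09 with it.

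These 6 low rows averaged between 8.23 and 87.9 in DMSO, and COX1, which is read from the same long precursor, averaged 10305, both per unit of gene length. All 6 share sequence with a copy of mitochondrial DNA in nuclear chromosome 1. In the GENCODE M21 transcripts of mouse build GRCm38, 8 of the 13 rows have a stretch at least 99 percent identical to an unprocessed pseudogene there, between bases 24611535 and 24616197, on the minus strand. Such a stretch covers 99.6 percent of ATP6 (Gm10925), 99.6 percent of COX2 (Gm28661), 99.9 percent of COX3 (Gm28437), 99.1 percent of ND3 (Gm28438) and 99 percent of ND4L (Gm10222). It covers 63.6 percent of ND4 (Gm28439), 31.3 percent of COX1 (Gm29216) and 21.1 percent of ATP8 (Gm10925), and 0 percent of CYTB, ND1, ND2, ND5 and ND6. Only annotated transcripts were searched. Any copied sequence between these pseudogenes is not counted, so the cover, as for ATP8, may be understated. Reads from such stretches map equally well to both places, so counts of these rows are uncertain. At a looser measure, 95 percent identity over at least 50 percent of length, ND5 also matches a pseudogene, Gm4076 (95.2 percent over 52.3 percent). COX1 matches Gm13340 on chromosome 2 by that measure (97.6 percent over 100 percent). The 5 rows with at least 99 percent cover were all under 100 in both groups. Among rows without a stretch at least 99 percent identical, DMSO levels ran from 112 for ND6 to 3328 for ND1. In lenvatinib libraries these rows ran from 84.1 for ND6 to 3301 for CYTB. There ND6 was below COX2, at 90.7.

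To show how close the copies are, the first 103 bases of ND3 and of Gm28438 are given, in lower case with the base that differs in capitals. The substitution is T3C, counted from the first base of ND3, and it is the only mismatch in the 345 aligned bases.
ND3: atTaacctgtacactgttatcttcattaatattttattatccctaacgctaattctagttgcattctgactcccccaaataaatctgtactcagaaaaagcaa
Gm28438: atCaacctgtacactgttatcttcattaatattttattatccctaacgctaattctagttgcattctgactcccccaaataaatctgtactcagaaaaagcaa
The pseudogenes were not analysed here, and how the authors' counting treated reads that fit both places is not given in the sources used here. Their part in the levels was not tested. The 8 rows with a stretch at least 99 percent identical summed to 11576 ± 269 in DMSO and 12162 ± 278 in lenvatinib libraries, mostly COX1. The 5 rows without such a stretch summed to 10389.6 ± 328 and 9937 ± 429, with overlap. ATP8 with ATP6 and ND4L with ND4 also overlap each other on the mitochondrial genome, which adds to the uncertainty of the shorter row of each pair.

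**Figure D4:**
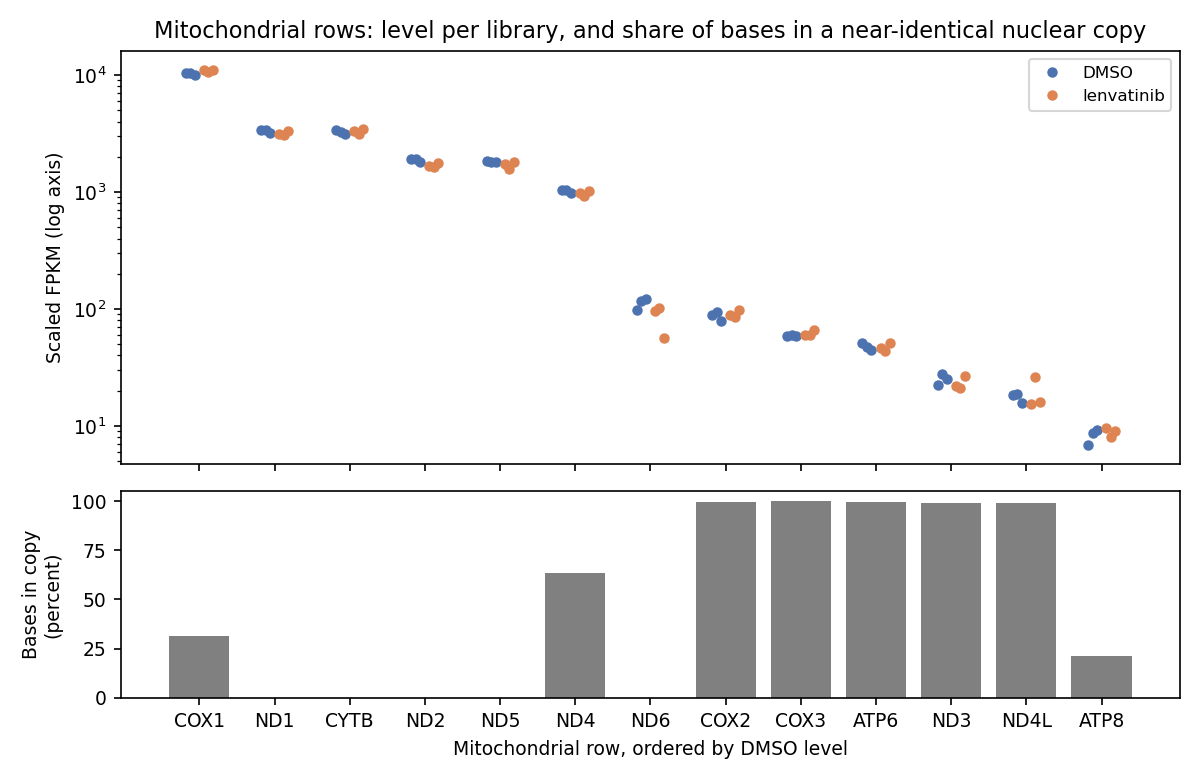
Upper panel, scaled FPKM of the 13 mitochondrial rows on a log axis, 1 point per library, ordered by DMSO level. Lower panel, percent of each row's bases at least 99 percent identical to an annotated nuclear pseudogene transcript. The rows with at least 99 percent of bases in a copy (COX2, COX3, ATP6, ND3, ND4L) lie below 100 in both groups.

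Processed pseudogenes also touch some nuclear members. For 7 of 78, Atp5h, Atp5k, Atp5l, Atp5o, Ndufb11, Ndufs3 and Uqcrb, another gene's transcript is at least 95 percent identical over at least 50 percent of the length, and their counts are uncertain in the same way. Without these 7, 25 of 66 tested nuclear members rose and 0 fell.

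Nuclear respiratory chain genes are short, and short genes were more often higher than lower in this comparison. The median length was 752 bases over the nuclear members with a recovered length and 3359 over tested genes. Of the 735 tested genes under 1000 bases, 18.8 percent rose and 3.81 percent fell, with a median change of 0.08; of the 44 members in that class 20 rose, with a median of 0.16. From 1000 to 2000 bases, 17.9 percent of 1803 genes rose (median 0.08), and 8 of 22 members (median 0.14). From 2000 to 4000 bases, 10.6 percent of 3371 genes rose (median 0.02), and 2 of 7 members (median 0.11). At 4000 bases or more there were 0 members, and 5.49 percent of 4010 genes rose while 11.2 percent fell (median −0.05). In each class that holds members, their median lay above that of all genes of the class. The part of length in the changes was not tested.

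**Figure D5:**
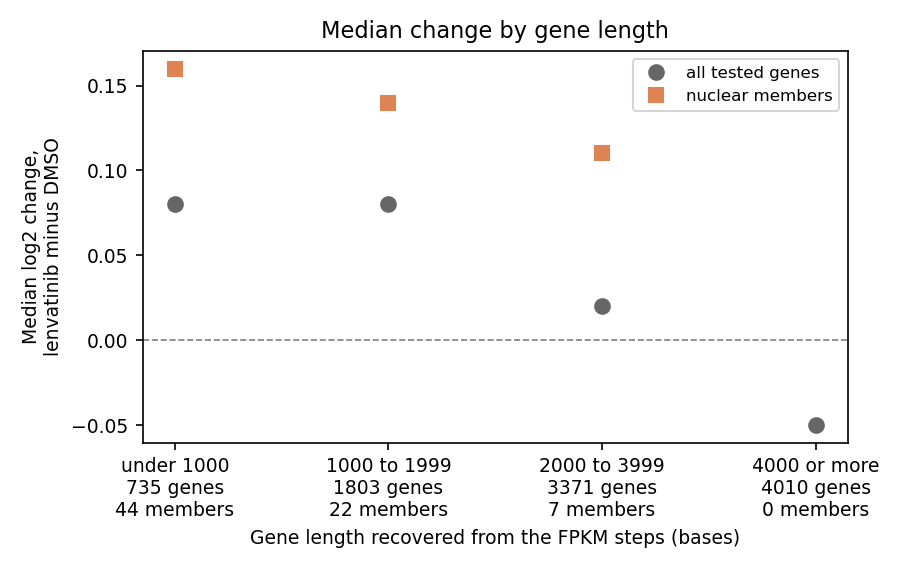
Median log2 change of all tested genes (circles) and of the tested nuclear members (squares) in 4 classes of gene length. Members lie above all genes in the 3 classes that hold any, and the median of all genes goes from 0.08 in the shortest class to −0.05 in the longest.

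Abundant genes were also called more often in both directions. Among the 520 tested genes with a mean of 100 or more, 26.2 percent rose and 22.5 percent fell, and 11 of 22 members there rose. Among the 1557 genes between 30 and 100, 16.9 percent rose and 15.1 percent fell, and 16 of 37 members rose. Between 10 and 30, 9.76 percent of 2777 genes rose and 9.33 percent fell, and 2 of 13 members rose. Under 10, 7.24 percent of 5083 genes rose and 4.03 percent fell, and 1 of 1 member rose.

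Many respiratory chain promoters carry sites for nuclear respiratory factor 1 (NRF1), for ETS factors such as GABP (also called NRF2 in this setting) and for YY1, which are known to drive these genes. The RefSeq promoter windows of build GRCm38.p6, from 250 bases before to 50 bases after the start, were available for 65 of the 78 nuclear members and were searched on both strands. The letters searched for NRF1 are GCGC, then any base, then TGCGC. They were in 15 of 65 members (23.1 percent), in 12.8 percent of tested genes and in 5.19 percent of all 27025 genes with a window. The letters CCGGAAG, for ETS factors, were in 23.1 percent of members, 23.2 percent of tested genes and 9.93 percent of all genes with a window. The letters AAGATGGCG, for YY1, were in 10.8, 4.31 and 1.64 percent. The ETS and YY1 letters can overlap, since the first end and the second begin with AAG. Of the 23 members that rose and had a window, 8 held the NRF1 letters: Atp5g2, Atp5g3, Atp5h, Atp5k, Atp5o, Ndufa11, Ndufs5 and Uqcrc1. That is 34.8 percent, while the ETS letters were in 4 of the 23 (17.4 percent) and the YY1 letters in 2 (8.7 percent), both shares below those over all 65 members.

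Windows of 4 members that rose are printed to show the letters in place, in the direction of transcription, with the NRF1 match in capitals. They are Ndufs5 (chr4:123718137-123718436, minus strand, match from base −98), Uqcrc1 (chr9:108936398-108936697, plus strand, matches from bases 6 and 31), Atp5g3 (chr2:73911277-73911576, minus strand, match from base 13) and Atp5b (chr10:128083057-128083356, plus strand, none of the 3 searched motifs). Positions count from 1 at the start of transcription, with −1 as the base before it.
Ndufs5: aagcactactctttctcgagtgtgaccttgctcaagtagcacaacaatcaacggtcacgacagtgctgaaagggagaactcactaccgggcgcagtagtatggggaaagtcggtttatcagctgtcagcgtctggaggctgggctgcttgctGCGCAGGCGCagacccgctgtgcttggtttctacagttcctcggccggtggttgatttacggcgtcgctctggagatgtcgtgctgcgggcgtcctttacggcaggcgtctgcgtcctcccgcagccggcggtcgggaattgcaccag
Uqcrc1: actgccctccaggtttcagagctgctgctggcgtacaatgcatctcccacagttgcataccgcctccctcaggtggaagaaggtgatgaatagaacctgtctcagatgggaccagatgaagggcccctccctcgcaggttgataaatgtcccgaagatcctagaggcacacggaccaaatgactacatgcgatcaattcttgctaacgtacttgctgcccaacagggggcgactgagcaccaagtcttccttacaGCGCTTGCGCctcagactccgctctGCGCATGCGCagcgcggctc
Atp5g3: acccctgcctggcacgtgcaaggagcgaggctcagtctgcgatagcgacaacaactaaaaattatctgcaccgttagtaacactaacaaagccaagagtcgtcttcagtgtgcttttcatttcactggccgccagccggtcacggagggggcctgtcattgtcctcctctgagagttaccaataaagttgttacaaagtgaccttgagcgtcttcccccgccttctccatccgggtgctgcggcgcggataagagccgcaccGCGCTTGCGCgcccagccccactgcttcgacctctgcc
Atp5b: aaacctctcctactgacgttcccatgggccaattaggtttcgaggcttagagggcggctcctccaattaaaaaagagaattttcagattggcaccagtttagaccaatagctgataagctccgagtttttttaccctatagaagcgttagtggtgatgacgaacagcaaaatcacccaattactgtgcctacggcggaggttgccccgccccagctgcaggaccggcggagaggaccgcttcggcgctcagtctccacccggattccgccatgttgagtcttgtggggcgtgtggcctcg
A match is a run of letters and not a shown binding site. Atp5b, whose adjusted p was the smallest of the members, has none of these letters in its window, and Uqcrc1, with a pair of NRF1 matches, had a change of 0.14.

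Among the genes of these factors, none passed the test. Nrf1 had 3.75 ± 0.228 and 3.79 ± 0.121, the GABP subunits Gabpa and Gabpb1 15.7 ± 0.314 and 16.8 ± 0.687 and 3.73 ± 0.298 and 3.79 ± 0.0886, and Yy1 29.7 ± 1.24 and 33.3 ± 1.16 (adjusted p = 0.0585). Of 7 tested regulators 0 rose and 1 fell by limma, beside 10.4 and 8.21 percent of all tested genes. At an unadjusted p under 0.05 limma had 1 higher and 1 lower, and limma-voom also called 1 and 1. The one that fell was Myc, a growth factor-induced transcription factor with mitochondrial genes among its targets, at 169.9, 169.6 and 172 in DMSO and 134, 134 and 136 in lenvatinib libraries. The groups were far apart, and Myc fell by 0.34 on the log2 scale (limma adjusted p = 3.47e-05). The coactivators Ppargc1a and Ppargc1b, which raise respiratory genes in muscle and fat, were too low to test, at 0.167 and 0.740 in DMSO and 0.218 and 0.583 in lenvatinib libraries.

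Complex II, succinate dehydrogenase, is wholly nuclear and outside the symbol rule. Sdhd, a membrane anchor, rose from 43.2 ± 1.37 to 48.5 ± 2.17 (log2 change 0.16, adjusted p = 0.0409). The flavoprotein Sdha had 64.1 ± 4.0 and 69.0 ± 1.10, the iron-sulfur subunit Sdhb 48.2 ± 1.97 and 51.5 ± 3.89, and the other anchor Sdhc 20.1 ± 1.41 and 24.4 ± 2.63 (adjusted p = 0.0529). Thus 1 of 4 rose and 0 fell, beside 10.4 and 8.21 percent of all tested genes. At an unadjusted p under 0.05 limma had 2 higher and 0 lower, and limma-voom called 0 and 0. The sum of the complex II genes was 10.1 percent higher without overlap, close in size to the sums of the other complexes.

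Of 9 tested subunits and electron carriers outside the symbol rule, 2 rose and 0 fell, beside 10.4 and 8.21 percent of all tested genes. At an unadjusted p under 0.05 limma had 3 higher and 1 lower, and limma-voom called 3 and 0. Etfb, the beta subunit of the flavoprotein that brings electrons from fatty acid oxidation, rose from 19.8 ± 2.44 to 27.0 ± 0.881 (log2 change 0.43, adjusted p = 0.00589). Cyc1, the cytochrome c1 of complex III, rose from 41.5 ± 1.2 to 47.3 ± 2.58 (log2 change 0.18, adjusted p = 0.0327). Cytochrome c itself, Cycs, had 16.2 ± 1.06 and 18.5 ± 1.53 (adjusted p = 0.134).

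Assembly factors, which build the complexes without staying in them, seldom passed the test. Of 46 tested assembly factors 1 rose and 2 fell, with a median change of 0.02 (5 and 3 at an unadjusted p under 0.05 in limma, 0 and 2 by limma-voom). Nubpl, which delivers iron-sulfur clusters to complex I, rose from 2.11 ± 0.283 to 3.26 ± 0.335 (adjusted p = 0.0225). Uqcc3, needed for complex III, fell from 18 ± 0.808 to 15.1 ± 0.641 (adjusted p = 0.025), and Sdhaf3, needed for complex II, from 2.57 ± 0.217 to 1.45 ± 0.550 (adjusted p = 0.0376). Uqcc2 had 17.6 ± 0.198 and 21.7 ± 2.82, with lenvatinib wholly above DMSO, and did not pass (adjusted p = 0.0503). The share that rose, 2.17 percent, was below the 10.4 percent of all tested genes. The tested assembly factors had a median level of 6.79 in DMSO. Among all tested genes with a mean under 10, 7.24 percent rose.

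The machinery that copies, transcribes and processes mitochondrial DNA had 2 of 24 tested genes higher (8.33 percent) and 0 lower. This was close to the 10.4 percent of all tested genes that rose, while 8.21 percent of all tested genes fell. The median change was −0.01. At an unadjusted p under 0.05 limma had 5 higher and 1 lower, and limma-voom called 2 and 1. The 2 genes past the limma threshold were Fastkd3, from 4.39 ± 0.179 to 5.90 ± 0.200 (adjusted p = 0.0128), and Tbrg4, from 31.9 ± 1.09 to 37.1 ± 2.22 (adjusted p = 0.0246), of a family of mitochondrial RNA-binding proteins. Of the 24 changes 11 were above 0 and 13 below. Tfb2m had 16.7 ± 1.10 and 19.2 ± 0.488, with lenvatinib wholly above DMSO, and did not pass (log2 change 0.19, adjusted p = 0.0587). Tfam, which packages mitochondrial DNA and starts its transcription, had 32.9, 38.1 and 36.7 in DMSO and 32.3, 31.6 and 32.6 in lenvatinib libraries. The lenvatinib libraries were all lower, and the change of −0.15 did not pass (adjusted p = 0.103). The mitochondrial RNA polymerase Polrmt had 5.03 ± 0.334 and 4.81 ± 0.333 (adjusted p = 0.728). Polrmt is named for its role, after its values were seen, and so are the members of complexes I, III, IV and V named above that did not pass and have no isoform partner.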

How the data were processed

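The labels' protocols give TRIzol for RNA extraction and the VAHTS Universal V10 kit for the libraries. HTSeq and mouse build GRCm39 are named per the submitters' processing notes; versions, aligner, annotation and use of strand are not given in the sources used here. FPKM values were deposited by the authors, and 20591 rows in 6 columns were used. FPKM was divided by median-of-ratios factors (0.9916 to 1.0091). A gene was tested if 3 or more libraries had a scaled FPKM of 1 or more, which kept 9937. log2(scaled FPKM + 1) was modelled in limma 3.58.1 (R 4.3.3) on treatment alone, with trend and robust moderation. Tests were two-sided, adjusted by Benjamini-Hochberg over all tested genes, with a threshold of 0.05. This scale understates changes of low genes.

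Whole reads were recovered for 19697 of 19715 rows with any value (99.9 percent, tolerance 1e-07), and recovered lengths of 13 of 13 mitochondrial rows equalled the annotated ones. The recovered library totals were 26635279, 31238096 and 30153561 reads for DMSO replicates 1 to 3. They were 31655500, 28835836 and 27605518 for lenvatinib replicates 1 to 3. Replicates differed by more than counting noise (chi-square per gene 6.84 to 10.2). The reference at hand is of build GRCm38 and served only for the search for copies, among GENCODE M21 transcripts, and for promoters.

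Members and lists were chosen with earlier results of these data known. Named singly are the 13 mitochondrial rows, the 4 members with the smallest p past the threshold in each complex, other members past it, members too low to test, isoform partners, subunit c genes, complex II and up to 4 genes of each other pathway list. The regulators are an exception. They are named for their role, as genes of the factors whose letters were searched, with Myc and the coactivators Ppargc1a and Ppargc1b. Alternatives changed scaling, pseudocount, filter, moderation, replicate term, test (limma-voom) and left out each library in turn.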

Additional observations from a re-analysis of the deposited data

How the results depend on the processing

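The 73 tested nuclear members had a change above 0 in 59 to 68 cases under the 16 alternatives. The count of nuclear members called, 30, was 11 without a filter on low values, where 19715 rows were tested, and 11 without trend and robust moderation, and 16 to 23 when 1 library was left out. In the same 2 settings the calls were 4 and 5 in complex I, 0 and 0 in complex III, 1 and 0 in complex IV, 6 and 6 in complex V, and 0 and 0 among mitochondrial rows. Scaling to the sum of FPKM without mitochondrial rows gave 1 call in complex III and 3 in complex IV, quantile normalization 1 in complex III, and limma-voom 2 in complex III and 6 in complex V. The complex V median was 0.18 with FPKM as deposited and 0.13 with scaling to that sum. With 1 library left out the calls ranged from 5 to 9 in complex I, 1 to 3 in complex III, 1 to 5 in complex IV, 6 to 9 in complex V and 0 to 3 among mitochondrial rows, and the complex V median from 0.15 to 0.19. CYTB changed sign with scaling to the sum without mitochondrial rows, to −0.01. Leaving out 1 library gave ATP6, COX2, CYTB and ND4L the other sign in some cases, with changes from −0.08 to 0.03 for ATP6, −0.03 to 0.10 for COX2, −0.02 to 0.05 for CYTB and −0.15 to 0.22 for ND4L. For single members and named genes, 615 values kept direction and side of the threshold, 202 lost the call, 5 gained it and 8 reversed. The causes were not tested. Without a filter the number of tests was larger, and a library left out made its group smaller. The part of these in the counts was not tested either.

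The labels do not state whether the replicate numbers pair the libraries. Deviations of same-numbered libraries correlated at −0.007, 0.006 and −0.005, and not every library correlated best with its own number. Such values show no strong shared effect, but cannot show whether the libraries were paired. With a replicate block the calls were 25 nuclear members higher and 0 of 13 mitochondrial rows.

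Depth limits the short, low rows most: ATP8 rested on 37 reads in its lowest library and Uqcr11 on 220.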
